A study of Danio rerio with 6 samples.

Results

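Regions of open chromatin that were called in exactly 2 of 3 libraries of GFPplus nuclei and in none of 3 libraries of GFPminus nuclei are described here. They numbered 4235 of 187225 regions, which is 2.26%. Members were found by merging the peaks of all 6 lists wherever they overlapped by 1 bp or more, and keeping each merged region with a peak in 2 GFPplus lists and in no GFPminus list. The regions were chosen by the peak calls themselves, that is, by whether a peak passed the caller's threshold in each library. Their number and their strength are therefore a description and were not tested. They are called 2-of-3 GFPplus regions below, and regions called in 3 of 3 GFPplus and 0 of 3 GFPminus lists (2285) are called 3-of-3 GFPplus-only regions.

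ATAC-seq maps accessible DNA with a transposase that inserts sequencing adapters where no nucleosome or other protein blocks it. Active promoters and enhancers are accessible in the cells that use them, and a gene with strong expression in 1 cell type often has several enhancers spread over its neighbourhood. The endothelium lines blood and lymph vessels, and its enhancers are commonly bound by ETS transcription factors, the protein family to which Fli1 belongs.

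GFPplus nuclei (3 libraries, endothelial per the labels) were compared with GFPminus nuclei (3 libraries, non-endothelial per the labels), all from Tg(fli1a:egfp) zebrafish embryos grown to 24 hours post fertilization. All embryos carried the transgene, in which regulatory DNA of fli1a drives EGFP, so the fractions differ by sorted fluorescence and not by genotype. Each library was made from 20000 nuclei, and nuclei were isolated on 3 separate occasions, which the design text calls biological triplicates. The transgene also limits the GFPplus fraction as a model, because it holds whichever nuclei carried enough EGFP, and no marker gene could be checked in peak lists that name no gene.

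GFPplus replicates 1, 2 and 3 had 72695, 73716 and 50396 peaks, and GFPminus replicates 1, 2 and 3 had 113476, 110663 and 33437 peaks. The fewest reads stacked at a called summit were 7, 7 and 5 in GFPplus replicates 1, 2 and 3, and 7, 7 and 5 in GFPminus replicates 1, 2 and 3. A stacked read is one that covers the summit after the caller's extension. Summits whose reads could not be recovered, or whose inferred background rate was not above a set floor, were left out of these minima. Among those kept, the lowest background rate, in reads per position, was 1.60, 1.59 and 0.839 in GFPplus replicates 1, 2 and 3 and 1.78, 1.83 and 0.804 in GFPminus replicates 1, 2 and 3. Replicate 3 of either fraction was therefore the shallower library of its group, and a region without a peak there may still hold reads. Likewise, 0 of 3 GFPminus lists means no call and not closed chromatin.

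The GFPplus libraries did not contribute evenly. GFPplus replicates 1 and 3 called 1985 of the 2-of-3 GFPplus regions (46.9%), GFPplus replicates 1 and 2 called 1836 (43.4%), and GFPplus replicates 2 and 3 called 414 (9.8%). The longest GFPplus list, that of replicate 2, thus lacked more of them than the shortest list, that of replicate 3. GFPplus replicate 2 also had the lowest fold enrichment of the 3 libraries at 3-of-3 GFPplus-only regions, with a median of 4.53 against 6.05 in GFPplus replicate 1 and 5.46 in GFPplus replicate 3. At regions called in all 6 lists its median fold was 6.77, against 7.46 in GFPplus replicate 1 and 6.95 in GFPplus replicate 3. The part of these differences in the uneven contribution was not tested.

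The 2-of-3 GFPplus regions stood between regions of 1 list and those of 3 GFPplus or all 6 lists in width and strength. Their median width was 238 bp (quartiles 194 and 303 bp), against 210 bp over all union regions, and their peaks had a median fold enrichment of 4.35, where fold is the authors' ratio of reads over background at the summit. The corresponding values were 134 bp and 3.86 in regions called in 1 GFPplus list alone, 142 bp and 3.64 in regions called in 1 GFPminus list alone, 228 bp and 3.91 in the 11803 regions called in 1 GFPplus and 1 GFPminus list (mixed-pair regions), 353 bp and 5.26 in 3-of-3 GFPplus-only regions, and 589 bp and 7.13 in regions called in all 6 lists. Of their 8470 peaks, 62.0% had a −log10 q under 5, against 80.9% for mixed-pair regions and 34.2% for 3-of-3 GFPplus-only regions. Only 0.106% of the member peaks lay in the upper 10% of their list. This order follows partly from the definition, since strong peaks are called in more lists and merging peaks widens a region.

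Member summits rested on few reads. In GFPplus replicate 1 the median was 13 reads (quartiles 11 and 17) in 2-of-3 GFPplus regions, against 11 in mixed-pair regions, 22 in 3-of-3 GFPplus-only regions and 29 in regions called in all 6 lists. In GFPplus replicate 2 it was 11 reads in members, against 11, 14 and 25 in the same 3 kinds of region. In GFPplus replicate 3 it was 9 reads in members, against 8, 12 and 17. By rank within their own list, member peaks lay at a median percentile of −log10 p of 41.0 in GFPplus replicate 1, 30.3 in GFPplus replicate 2 and 32.4 in GFPplus replicate 3. Members ranked above mixed-pair regions, at 25.8, 26.6 and 20.6 in those libraries, and below 3-of-3 GFPplus-only regions.

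**Figure D1:**
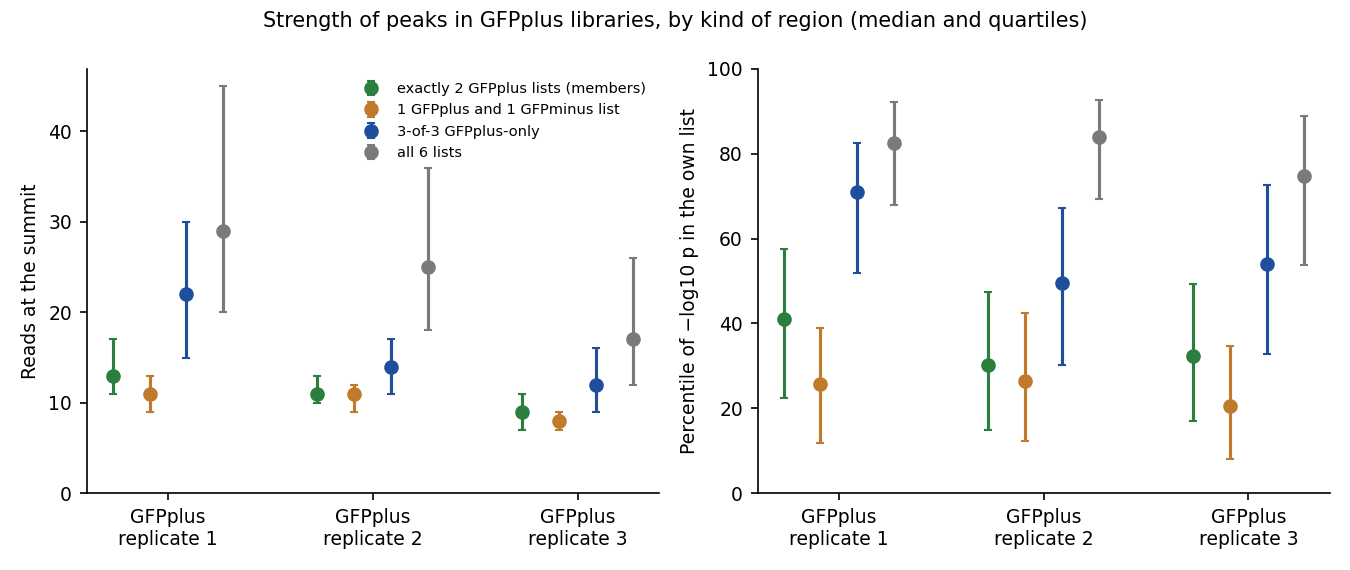
Reads at the summit (left) and percentile of −log10 p within the own list (right) in each GFPplus library, for peaks of 2-of-3 GFPplus regions, mixed-pair regions, 3-of-3 GFPplus-only regions and regions called in all 6 lists. Points are medians and bars are quartiles; members lie between mixed-pair and 3-of-3 regions, with equal medians of 11 reads for members and mixed-pair regions in GFPplus replicate 2.

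Agreement between the 2 libraries in strength was loose. Across regions, Spearman's rho of −log10 p between the 2 lists was 0.33 for GFPplus replicates 1 and 3 (1985 regions), 0.21 for replicates 1 and 2 (1836 regions) and 0.15 for replicates 2 and 3 (414 regions). These are descriptions over regions that share 2 libraries and were selected for passing a threshold in both. Summits lay at a median of 48 bp apart in 2-of-3 GFPplus regions and 56 bp apart in mixed-pair regions. Peaks were merged only where they overlapped, so short distances follow partly from the rule in both kinds of region. The difference of −8 bp was the largest in size of the 20 ways to call 3 of the 6 libraries GFPplus (exact two-sided permutation p = 0.05, the smallest possible). With all lists shortened to the length of the shortest it was −5 bp (exact permutation p = 0.65), so this call does not survive that setting. With regions called in 1 library at a time left out, the difference lay between −10 and −5 bp, with exact permutation p values from 0.1 to 0.3.

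Only members on numbered chromosomes were ranked by the lower −log10 p of their 2 libraries. The 10 strongest lay on 9 chromosomes, and 9 of the 10 were called in GFPplus replicates 1 and 3. Coordinates are those of Zv9 (danRer7), counted from 1. The first lay at chr10:38575219-38575553, with a fold of 8.23 in GFPplus replicate 1 (27 reads) and 9.72 in GFPplus replicate 3 (21 reads) and no peak in the other 4 lists. The next, at chr19:37235533-37235818, had a fold of 12.0 in GFPplus replicate 1 (49 reads) and 9.02 in GFPplus replicate 3 (21 reads). The third, at chr1:51282704-51282940, had a fold of 7.61 in GFPplus replicate 1 (25 reads) and 9.68 in GFPplus replicate 3 (18 reads). The lowest −log10 p of these 3 in either library was 17.7 after rounding. The median of the lower value over all members was 5.65. All 3 nonetheless had no call in GFPplus replicate 2, which had the longest GFPplus list.

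The remaining 7 had mean folds between 7.26 and 10.9. At chr24:20847643-20848088 the fold was 9.15 in GFPplus replicate 1 and 9.04 in GFPplus replicate 3, the closest pair of values among the 10. At chr23:26032535-26032815 the peaks were in GFPplus replicates 1 and 2, with folds of 7.63 and 8.07 and 22 reads in each, and this was the 1 region of the 10 that GFPplus replicate 3 lacked. The most uneven was chr15:13964601-13964890, with a fold of 14.2 and 84 reads in GFPplus replicate 3, where it ranked 180 of 50396 peaks, and a fold of 7.71 and 20 reads in GFPplus replicate 1, where it ranked 17632. The other 4 lay at chr14:34768787-34769016, chr1:53434580-53435149, chr11:44195438-44195874 and chr20:48650618-48651106. None of the 10 lay within 10 kb of a 3-of-3 GFPplus-only region. The nearest such neighbours were 22047 bp away on chromosome 11, 25434 bp away on chromosome 14 and 31238 bp away on chromosome 19.

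At the other end, the 3 weakest members on numbered chromosomes were called in GFPplus replicates 1 and 2. At chr11:3728262-3728500 the fold was 4.33 in GFPplus replicate 1 (11 reads) and 2.76 in GFPplus replicate 2 (7 reads, the minimum given above for that list). At chr24:16014920-16015134 it was 2.76 in GFPplus replicate 1 (7 reads) and 4.29 in GFPplus replicate 2 (11 reads). The third, at chr15:27440578-27440737, had 2.77 in GFPplus replicate 1 (7 reads) and 3.28 in GFPplus replicate 2 (8 reads). The chromosome 11 region lay 6335 bp from a 3-of-3 GFPplus-only region, the other pair 125448 bp or more from one.

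Whether such weak, partly replicated calls lie near the firmly replicated GFPplus calls was asked by their distance to the nearest 3-of-3 GFPplus-only region, measured between edges. Of the 4235 members, 369 (8.71%, 95% Wilson interval 7.90% to 9.60%) lay within 10 kb of one. Of the 11803 mixed-pair regions, 447 did (3.79%, interval 3.46% to 4.15%), and among all union regions other than the 3-of-3 ones the share was 4.02%. The difference of 4.93 percentage points was the highest of the 20 ways to call 3 of the 6 libraries GFPplus, with neighbours and pairs found anew each time (exact one-sided permutation p = 0.05, the smallest possible). The next highest relabelling gave 1.44 points. The difference in points depends on how many regions the 3 libraries of a set share alone. That number was 2285 for the GFPplus libraries and ranged from 19 to 5211 over the relabellings. In 11 of them it was under 300, and no more than 0.59% of their own pairs were near such a region, so none of those 11 could have reached a difference of this size. Apart from the GFPplus set, only GFPminus replicates 1 and 2 joined by GFPplus replicate 1 (6.93%) or 2 (9.81%) had an own-pair share above 4.93%. The next share was 3.83%, for the GFPminus libraries. The p of this exact permutation test thus rests mostly on relabellings that could not have reached the difference. The test of this difference and that of summit distances were the 2 main tests, and Benjamini-Hochberg adjustment over them leaves each exact permutation p at 0.05. The p values of alternative settings were not adjusted. Relabelling within replicate numbers gave the difference in share an exact permutation p of 0.125, the smallest that 8 relabellings allow. Whether a replicate number marks 1 of the 3 occasions of isolation is not stated. Intervals cover counting error only, since reads and neighbouring regions are not independent.

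As a ratio the shares differed 2.30-fold, and on that scale the call was lost (exact one-sided permutation p = 0.1). A relabelling with 35 neighbour regions reached 6.53, from 4 of 1227 and 11 of 22024 regions. In lists cut to 1 length the ratio was 2.44, an alternative added after seeing the data (exact one-sided permutation p = 0.15). There it was exceeded by the set of GFPplus replicate 2 with GFPminus replicates 1 and 2, which had 752 neighbour regions and a ratio of 3.13 (108 of 2631 own-pair regions), and by the set of GFPminus libraries, with 2176 neighbour regions and a ratio of 2.52. With regions called in GFPplus replicate 1 left out, the difference was 2.53 points (6.04% of 414 members against 3.51% of mixed-pair regions, exact one-sided permutation p = 0.05). This p rests on the same relabellings as the main test, 11 of which had under 300 neighbour regions. How many of them could have reached 2.53 points was not counted.

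Each GFPplus pair had a higher share than any mixed pair. The share was 9.52% for GFPplus replicates 1 and 3 (189 of 1985), 8.44% for GFPplus replicates 1 and 2 (155 of 1836) and 6.04% for GFPplus replicates 2 and 3 (25 of 414). The 9 mixed pairs ranged from 1.80% (GFPplus replicate 3 with GFPminus replicate 1, 13 of 723) to 4.61% (GFPplus replicate 1 with GFPminus replicate 1, 108 of 2343). The GFPplus pairs averaged 8.0% ± 1.78 (SD over 3 pairs) and the mixed pairs 3.35% ± 0.84 (SD over 9 pairs). Pairs share libraries and are not independent, and the intervals of GFPplus replicates 2 and 3 (4.12% to 8.76%) overlap those of several mixed pairs. Regions called in exactly 2 GFPminus and 0 GFPplus lists (14181) had 3.27% near a 3-of-3 GFPplus-only region, close to the mixed pairs.

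**Figure D2:**
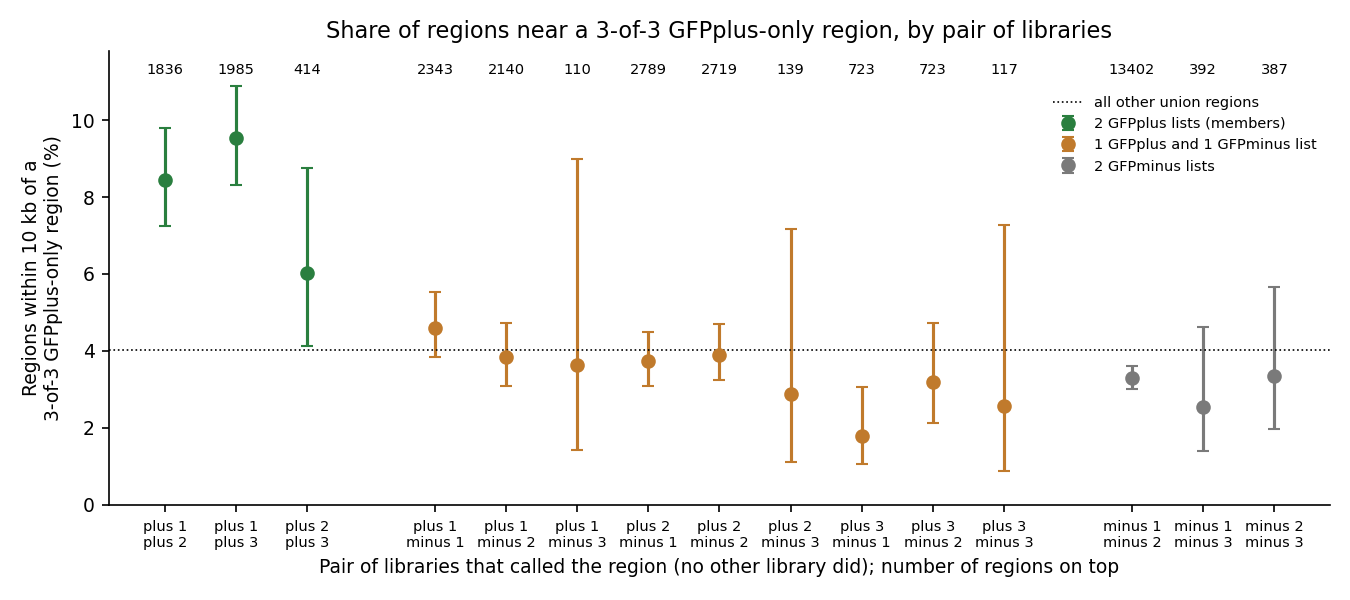
Percentage of regions within 10 kb of a 3-of-3 GFPplus-only region (y axis) for each pair of libraries that called the region alone (x axis), with 95% Wilson intervals and the number of regions on top; the dotted line is the 4.02% of all other union regions. The 3 GFPplus pairs lie between 6.04% and 9.52%, and the 9 mixed pairs between 1.80% and 4.61%.

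Among regions called in no GFPminus list, the share rose with the number of GFPplus lists. It was 4.84% for the 27134 regions called in 1 GFPplus list alone, 8.71% for members, and 12.3% for the 3-of-3 GFPplus-only regions themselves with respect to another of their kind. Regions called in 3 GFPplus lists and 1 GFPminus list (2217) had 9.92%. Regions called in 1 GFPminus list alone had 2.99%, and regions called in all 6 lists had 4.61%. These shares were not tested against each other.

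The ratio of members to mixed-pair regions was highest at short range. Gaps of up to 1 kb were found for 1.53% of members (65 regions) and 0.347% of mixed-pair regions (41), a ratio of 4.42. The ratio was 2.39 at 1 to 2 kb, 2.08 at 2 to 5 kb and 2.04 at 5 to 10 kb. It was 1.53 at 10 to 25 kb, 1.27 at 25 to 50 kb and 1.15 at 50 to 100 kb. The median distance was 161527 bp for members and 238777 bp for mixed-pair regions. Of the 65 closest members the median gap was 240 bp and the smallest 6 bp. With gaps of 1 to 10 kb alone the shares were 7.18% and 3.44%, a difference of 3.74 points (exact one-sided permutation p = 0.05). The limit of the main test holds for this p too. In 11 of the relabellings no more than 0.59% of own pairs lay within 10 kb of a neighbour region. None of those 11 could have reached 3.74 points, so this p adds little to the main test.

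**Figure D3:**
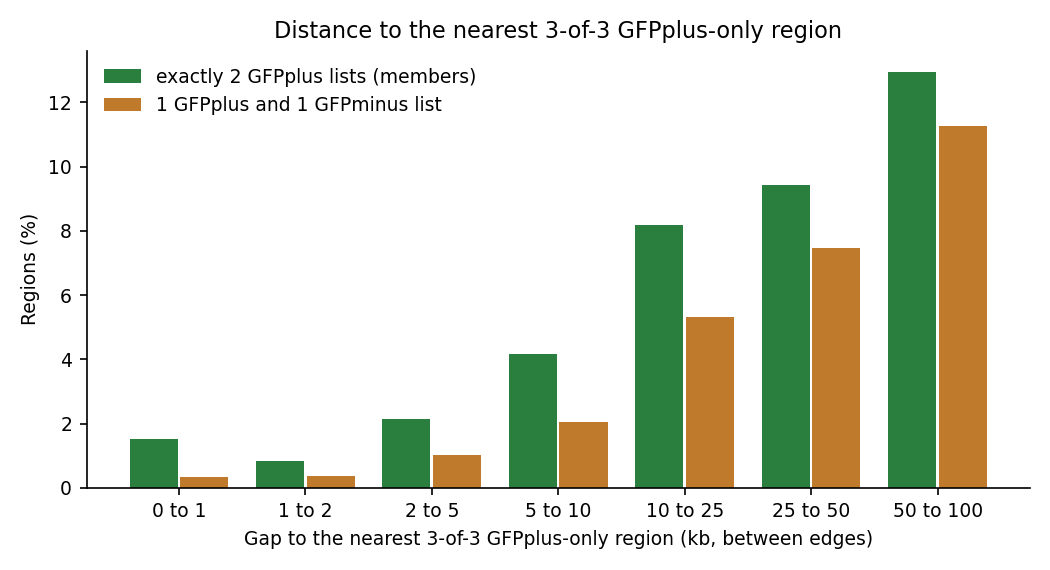
Percentage of 2-of-3 GFPplus regions and of mixed-pair regions (y axis) by gap to the nearest 3-of-3 GFPplus-only region in kb (x axis, bands of unequal width). Members exceed mixed-pair regions in every band up to 100 kb, by 4.42 times in the first band and 1.15 times in the last; the other 60.7% of members and 72.2% of mixed-pair regions lie farther away.

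Members next to the limit were sought on numbered chromosomes. The member nearest to the limit on the inside, at chr10:25121704-25122045, lay 9948 bp from its neighbour. It had folds of 4.60 in GFPplus replicate 1 and 8.73 in GFPplus replicate 3. The nearest on the outside, at chr20:51791521-51791786, lay 10023 bp away and had folds of 4.49 in GFPplus replicate 1 and 4.63 in GFPplus replicate 2.

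Members were stronger than mixed-pair regions, and the shares were therefore also compared within classes of strength and of local density. In the 4 classes below, strength was the percentile of −log10 p within the own list, and lists held 33437 to 113476 peaks. In regions of GFPplus replicate 1 with GFPminus replicate 1, median folds were 3.89 and 3.86, with 11 reads in each. Their median percentiles were 23.5 and 34.4. Equal percentile is thus not equal fold or reads, and neither comparison matched members and mixed-pair regions on those. The median number of other regions within 50 kb was 16 around members and 16 around mixed-pair regions. With mixed-pair regions reweighted to 5 equal classes of the members' strength their share near a 3-of-3 GFPplus-only region was 3.85%, and reweighted to 5 such classes of local density it was 3.86%. Among members the share was 6.89% in the weakest of 4 equal classes (percentile of the lower of the 2 calls up to 10.2), 7.37% in the next, 9.92% in the one above and 10.7% in the strongest. For mixed-pair regions within the same percentile limits the shares were 3.70%, 3.57%, 3.59% and 4.78%.

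**Figure D4:**
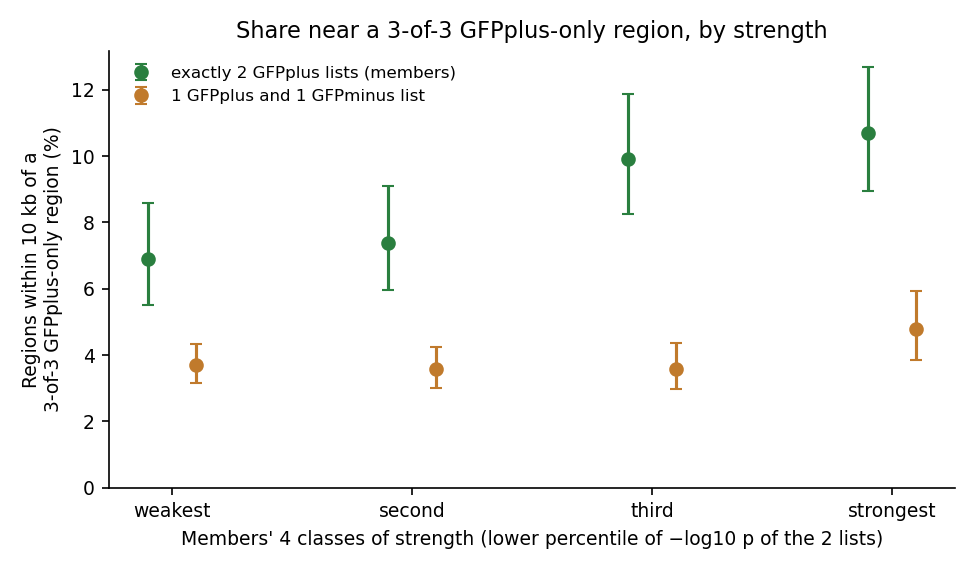
Percentage within 10 kb of a 3-of-3 GFPplus-only region (y axis) by strength, in 4 equal classes of the members (x axis: lower of the 2 percentiles of −log10 p), with 95% Wilson intervals. Percentiles were taken within lists of unlike length. Members lie between 6.89% and 10.7% and mixed-pair regions between 3.57% and 4.78%, with members higher in each class.

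Members within 10 kb of a 3-of-3 GFPplus-only region had more reads at their summit but no higher fold. In GFPplus replicate 1 the median was 17 reads for 344 such members and 13 reads for the 3477 others, with a median fold of 4.44 for both. The median background rate at their summits was 2.79 reads for the near members and 1.97 reads for the others. In GFPplus replicate 2 the medians were 12 and 11 reads, and in GFPplus replicate 3 they were 10 and 9 reads.

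Proximity to other kinds of region was measured for comparison. Within 10 kb of regions called in 3 of 3 GFPminus and 0 of 3 GFPplus lists (1594) lay 2.55% of members and 2.53% of mixed-pair regions, against 2.79% of all regions outside that kind. Regions called in all 6 lists were within 10 kb of 32.2% of members and 27.8% of mixed-pair regions, against 26.9% of all others. Another 2-of-3 GFPplus region was within 10 kb of 12.2% of members, a member was within 10 kb of 7.63% of mixed-pair regions, and the share over all regions that are no members was 7.35%. Regions called in exactly 2 GFPminus lists were near 18.6% of members and 22.2% of mixed-pair regions, against 21.6% of all others. Members thus lay more often than mixed-pair regions within 10 kb of 3-of-3 GFPplus-only regions, of other members and of regions called in all 6 lists. Near 3-of-3 GFPminus-only regions the shares were alike. Near regions called in exactly 2 GFPminus lists the member share was lower. These shares were compared without a test.

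The same question was asked of the GFPminus libraries and their own replicated calls. As deposited, 3.83% of the regions in exactly 2 GFPminus lists lay within 10 kb of a 3-of-3 GFPminus-only region, against 2.53% of mixed-pair regions, a difference of 1.296 points. With each list shortened to its best 33437 peaks, the difference was 6.05 points for GFPplus pairs (10.3% and 4.20%) and 5.43 points for GFPminus pairs (9.0% and 3.57%). The excess near replicated calls of the own fraction is therefore not shown to be particular to GFPplus nuclei, and the difference between the fractions was not tested.

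Seen from the 3-of-3 GFPplus-only regions, 360 of 2285 (15.8%) had at least 1 member within 10 kb. The share was 7.63% for mixed-pair regions and 7.35% over all regions that are no members. Of the 3-of-3 GFPplus-only regions, 41 (1.79%) had 2 or more members, a share not counted for other regions. The single one with 3 members lay at chr21:38962728-38963002, with folds of 6.65, 3.65 and 8.36 in GFPplus replicates 1, 2 and 3. Its members lay 240 bp below it (chr21:38962157-38962487), 6251 bp above it (chr21:38969254-38969477) and 8094 bp above it (chr21:38971097-38971315). All 3 members were called in GFPplus replicates 1 and 3, with folds of 4.95 and 3.38, 4.18 and 4.0, and 3.24 and 3.82 in those libraries. In the central region, too, GFPplus replicate 2 had the lowest fold of the 3 libraries.

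The strongest with 2 members lay at chr16:12726259-12726786, with folds of 13.5, 8.78 and 13.1 in GFPplus replicates 1, 2 and 3. A member called in GFPplus replicates 2 and 3 (folds of 3.78 and 3.59) lay 6670 bp below it at chr16:12719368-12719588, and one called in GFPplus replicates 1 and 3 (2.97 and 3.22) lay 4468 bp above it at chr16:12731255-12731469. The region at chr8:17651869-17652189 had folds of 7.27, 7.19 and 8.45 in GFPplus replicates 1, 2 and 3. It also had a member on each side, 6414 bp below at chr8:17645127-17645454 and 5975 bp above at chr8:17658165-17658543. The members of chr19:14717927-14718182 and of chr25:13936560-13937238 all lay at lower coordinates, at 3663 and 1023 bp and at 9370 and 5721 bp. These 5 were the first by number of members and then by strength, and 36 more 3-of-3 GFPplus-only regions on numbered chromosomes had 2 members as well.

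Members were spread over all 25 numbered chromosomes (4150 regions), with 85 (2.01%) on other sequences, which held 3.45% of all union regions. They made up between 1.83% of the union regions on chromosome 6 and 2.82% on chromosome 20. The share within 10 kb of a 3-of-3 GFPplus-only region was higher for members than for mixed-pair regions on 23 of 25 chromosomes. The exceptions were chromosome 7 (3.07% of 228 members and 3.19% of 596 mixed-pair regions) and chromosome 12 (2.99% of 134 members and 4.91% of 387 mixed-pair regions). It was highest for members on chromosome 10, at 16.3% (24 of 147), followed by 15.4% on chromosome 21 (23 of 149). Mixed-pair regions had 6.48% on chromosome 10 (23 of 355) and 4% on chromosome 21 (16 of 400).

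Peaks beside the members were counted last. The same shares over all regions were not counted, so none of them is read here as high or low. A separate region with a GFPplus peak lay within 1 kb of 27.1% of members, 26.7% of mixed-pair regions and 24.2% of 3-of-3 GFPplus-only regions. Among the lists that lacked a member, GFPplus replicate 3 had such a peak for 15.96% of the members it lacked, GFPplus replicate 2 for 14.3% and GFPplus replicate 1 for 18.8%. A separate GFPminus peak lay within 1 kb of 26.0% of all members, 34.9% of mixed-pair regions and 17.3% of 3-of-3 GFPplus-only regions. Among members this share was 20.3% for those of GFPplus replicates 1 and 3 and 30.8% for those of replicates 1 and 2. It was 32.4% for those of replicates 2 and 3. Differences between the pairs were not tested.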

How the data were processed

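The authors deposited 1 list of peaks per library. Per the submitters' processing notes, cutadapt 1.3, Bowtie2 2.1.0, deepTools and MACS2 were used with Zv9 (danRer7), and the file headers name 1 library each. Settings and read filters: not given in the sources used here. In the deposited narrowPeak columns, a peak has a fold (a ratio to the caller's background), its −log10 p, the −log10 q derived from it, a summit position and a score. For 99.99% of 454383 peaks the deposited score is 10 times the −log10 q, cut to a whole number. Percentiles of −log10 p were taken within lists. The −log10 p that ranked the named members and neighbours was compared across libraries of unlike depth.

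Peaks were merged into regions, and gaps were measured between edges, with Python 3.11.15, numpy 2.4.6, pandas 2.3.3 and scipy 1.17.1. Reads at a summit were recovered as the whole number k for which fold = (k + 1) / (rate + 1) and the Poisson tail above k both hold. The −log10 p then matched within 0.001 for 99.84% to 99.99% of the peaks of a list. Peaks are given singly as the strongest of a region in its list. Code was tested on simulated data.

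The library was the replicate: exact permutation tests used the 20 ways to choose 3 of 6 libraries. Regions on numbered chromosomes were named by rank. These were the 10 strongest and 3 weakest members, the 5 neighbours with most members, and the members on either side of 10 kb. The members, lists and tests were chosen with earlier results of these data known. Genes and sequence were not analysed here, because the gene table at hand is of another build. Alternatives are given in the closing section.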

Additional observations from a re-analysis of the deposited data

How the results depend on the processing

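The number of members lay within 1.5 times 4235 in every alternative run other than those that left out regions called in 1 GFPplus library. The difference in share was above 0 in every alternative run. At 5 kb the shares were 4.53% for members and 1.74% for mixed-pair regions, and at 25 kb they were 16.9% and 9.12%. Without 1 GFPminus library, members numbered 4352 to 6202, the member share was 8.75% to 10.4% and the mixed-pair share 3.97% to 5.56%. The difference in share was then 4.72 to 4.85 points, and 10 relabellings remain, so the exact permutation p of 0.1 is the smallest possible. No GFPplus library was removed, since members and 3-of-3 regions could then not be told apart. Instead, regions called in 1 GFPplus library were left out and the 3-of-3 regions were kept. The members are then those of a single GFPplus pair, 414 to 1985 regions, with shares of 6.04% to 9.52%. The mixed-pair share was 3.51% to 3.98% and the difference 2.53 to 5.74 points. With regions called in 1 library left out, the summit difference was −10 to −5 bp. The ratio of 2.30 had an exact permutation p of 0.1, and 2.44 with lists of equal length 0.15 (chosen after seeing the data). Also chosen then, equal lists of 50396 peaks without GFPminus replicate 3 gave 11.6% and 6.14%, a difference of 5.43 points (exact permutation p = 0.1, the smallest possible). The summit difference was −5 bp at equal length (exact permutation p = 0.65). The causes were not tested.

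Deviations of calls in same-numbered libraries correlated at −0.012, 0.020 and 0.011, all under 0.1; GFPplus replicates 2 and 3 correlated best with their own number and GFPplus replicate 1 did not. Whether a number marks 1 of the 3 occasions is not stated, and numbers were not used to pair the libraries. In the 117 regions of GFPplus replicate 3 and GFPminus replicate 3, rho of −log10 p was 0.59, against 0.001 to 0.16 in the other mixed pairs. With the replicate block the difference in share of 4.93 points and the summit difference of −8 bp had an exact permutation p of 0.125, the smallest that 8 relabellings allow.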
